A study of Mus musculus with 18 samples.

Results

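The genes described here are 33 mouse genes of cholesterol and fatty acid synthesis, among 54838 genes in a table of RNA-sequencing counts. They were listed by name for their known roles. The set holds 9 enzymes that lead from acetyl-CoA through mevalonate to squalene and its branch to geranylgeranyl diphosphate, 11 enzymes that lead from squalene to cholesterol, 6 genes of the sterol regulatory element-binding protein (SREBP) system and of sterol transport, and 7 genes of fatty acid synthesis. All 33 were found in the table by their identifiers and all 33 passed the filter on low counts, their lowest count in any library being 56 (Mvd in a 72 h TNF culture).

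The study asked how the pro-inflammatory cytokine tumor necrosis factor (TNF) alters gene expression while neural stem cells become astrocytes. Stem cells from the ventricular zone of wild type C57BL/6J mouse embryos (day 14) were grown as floating neurospheres (NSPs), which are balls of proliferating stem and progenitor cells, in a serum-free medium with B27 and 20 ng/ml EGF. Differentiated cells were on poly-L-ornithine in DMEM with 10% fetal bovine serum and no EGF for 24 h, 72 h or 1 week, and those of 24 h and 72 h were also grown with TNF at 50 ng/ml. There were 3 libraries in each of the 6 conditions. The change of medium, serum and attachment accompanied the NSP to 24 h step in every culture, so these and differentiation cannot be told apart. No 1 week culture with TNF was part of the RNA data.

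Cells build cholesterol from acetyl-CoA through mevalonate, squalene and lanosterol, and they build fatty acids from the same acetyl-CoA. The SREBP transcription factors raise the genes of these routes when membrane sterols are scarce. In that case the escort protein Scap carries the SREBPs from the endoplasmic reticulum to the Golgi for cleavage, and the Insig proteins hold the complex back when sterols are plentiful. In the brain, cholesterol is made locally, and astrocytes are a main source of it for neurons.

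Promoter sequences are shown for 5 genes on which the results below turn: Hmgcs1 and Lss, which fell with differentiation, Hsd17b7, which rose, and Insig1 and Insig2, which moved in opposite directions. They are the bases before the RefSeq start site (build GRCm38.p6) read in the direction of transcription, and stop where the GENCODE gene begins if that comes first. Capitals mark a sterol regulatory element (TCACNCCAC), a CCAAT box (CCAAT) or an E-box (CACGTG), each searched on both strands, so that ATTGG is a CCAAT box on the other strand. None of the capitalised motifs overlapped another.
Hmgcs1 (chr13:119690101-119690350, + strand): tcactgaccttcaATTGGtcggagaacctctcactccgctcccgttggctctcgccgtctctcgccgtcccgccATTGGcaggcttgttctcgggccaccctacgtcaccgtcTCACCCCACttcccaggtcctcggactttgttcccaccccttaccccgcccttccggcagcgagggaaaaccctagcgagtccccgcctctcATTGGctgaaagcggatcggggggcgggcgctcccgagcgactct
Lss (chr10:76531355-76531587, + strand): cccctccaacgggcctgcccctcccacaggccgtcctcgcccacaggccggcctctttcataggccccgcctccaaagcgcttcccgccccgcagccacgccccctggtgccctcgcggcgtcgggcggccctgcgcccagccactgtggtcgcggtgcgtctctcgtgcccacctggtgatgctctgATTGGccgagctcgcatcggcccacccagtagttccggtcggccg
Hsd17b7 (chr1:169969242-169969455, - strand): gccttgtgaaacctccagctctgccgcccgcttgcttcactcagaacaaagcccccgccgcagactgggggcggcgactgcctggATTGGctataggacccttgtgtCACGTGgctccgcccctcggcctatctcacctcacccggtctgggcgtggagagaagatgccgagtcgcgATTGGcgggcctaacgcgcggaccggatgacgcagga
Insig1 (chr5:28071162-28071362, + strand): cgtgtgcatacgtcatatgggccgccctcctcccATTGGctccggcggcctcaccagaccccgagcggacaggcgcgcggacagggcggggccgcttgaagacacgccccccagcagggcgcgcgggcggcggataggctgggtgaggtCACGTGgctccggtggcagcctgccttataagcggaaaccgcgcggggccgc
Insig2 (chr1:121332590-121332839, - strand, at 1 of its 3 start sites in the table): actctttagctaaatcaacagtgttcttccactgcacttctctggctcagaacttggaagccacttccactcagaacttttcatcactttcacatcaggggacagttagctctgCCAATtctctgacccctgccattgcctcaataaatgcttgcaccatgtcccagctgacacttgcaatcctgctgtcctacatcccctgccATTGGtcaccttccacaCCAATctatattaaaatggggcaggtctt

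In the Hmgcs1 promoter the sterol regulatory element lay at -137 to -129 from the start site, between CCAAT boxes at -176 to -172 and at -45 to -41. In all, 27 of the 33 genes had a promoter in the RefSeq table. Over the 250 bases before the start, a CCAAT box was present in 22 of these 27 genes (81.5%), against 37.5% of all 27025 genes in the table. An E-box was present in 5 of the 27 (Dhcr7, Hsd17b7, Insig1, Sc5d and Scap), which is 18.5% against 6.86% of all genes. The sterol regulatory element in this exact spelling was found in 1 of the 27, Hmgcs1, and in 1.22% of all genes. These matches are descriptions of letters, not of bound sites, and a missing match says only that these letters are not in this window.

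Total counts ranged from 12509693 to 22549627 per library, with a median of 16794798. The 33 genes took from 0.3496% (72 h TNF replicate 1) to 1.2658% (NSP replicate 1) of a library's counts. Levels are given as CPM, the counts of a gene scaled to a common library size with TMM factors. Expression of the 8 astrocyte markers did not fall under 1 CPM in any condition, and their summed level was 5128 to 5364 CPM in NSPs, 5696 to 8145 CPM at 72 h and 2683 to 3247 CPM at 1 week. Gfap, the intermediate filament of astrocytes, had a mean of 27.1 CPM in NSPs, 2432 CPM at 72 h and 63.4 CPM at 1 week. Of the other 7 astrocyte markers 6 had lower means at 1 week than in NSPs, among them Aldh1l1 (3.58 against 12.9 CPM), S100b (14.1 against 117 CPM) and Aldoc (263 against 1181 CPM), and Aqp4 was the exception (201 against 159 CPM). The 6 neural stem cell markers also summed to less at 1 week (3535 to 4519 CPM) than in NSPs (6323 to 8007 CPM). Proliferation markers (6 genes) summed to 1569 to 2681 CPM in NSPs and to 148 to 163 CPM at 24 h. The myelin genes Mog, Mag and Mobp were under 1 CPM in all 6 conditions, and the 6 microglial markers summed to at most 3.88 CPM. Of the 6 markers of fibroblasts and mural cells, Col1a1, Col1a2, Dcn, Lum and Pdgfrb stayed under 1 CPM throughout, while Acta2 had a mean of 5.83 CPM in NSPs and 439 CPM at 24 h. In these bulk cultures, fewer cells of a type and less RNA per cell cannot be told apart. The labels give replicate numbers without saying which mouse or culture each came from, so p-values measure the spread between these libraries.

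Within their own condition, 2 libraries stood apart in these genes. In NSP replicate 1, 30 of the 33 genes were above the mean of NSP replicates 2 and 3, with a median log2 ratio of 0.69 (all genes: 0.04), and 11 were doubled or more, against 2.87% of all genes tested. In 24 h TNF replicate 1, 31 of the 33 were below the mean of replicates 2 and 3, with a median log2 ratio of -1.04 (all genes: 0.00), and 17 were halved or lower, against 2.37% of all genes. The other libraries had medians between -0.45 and 0.46, the ends being NSP replicate 2 and 24 h TNF replicate 3, which were each compared with a mean that includes the library standing apart. Counts and medians over the 33 genes, and over each role group against NSPs, are therefore also given with these libraries left out.

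**Figure D1:**
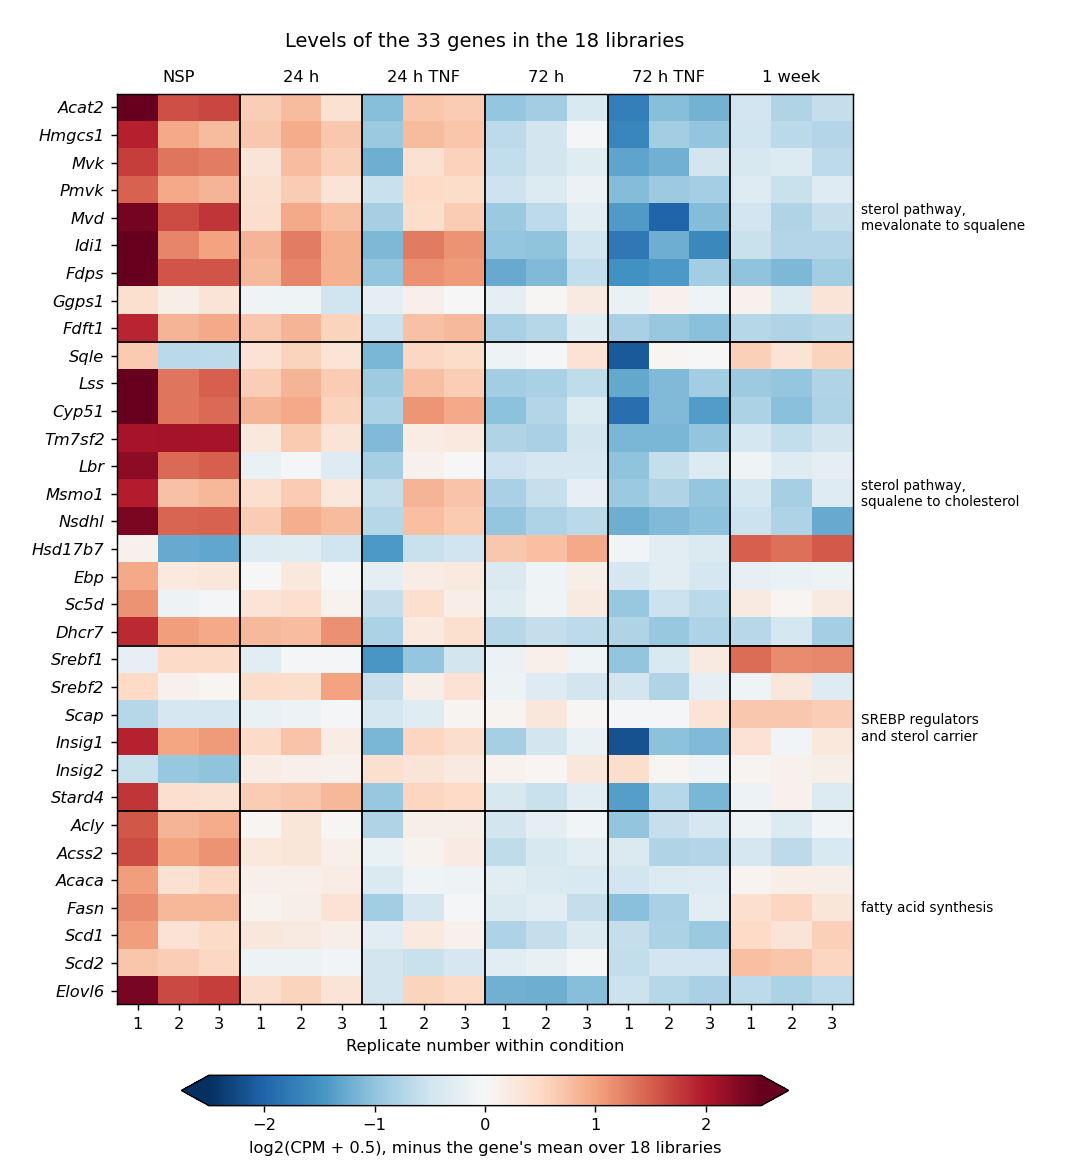
Each row is a gene, each column a library, and colour gives log2(CPM + 0.5) minus the gene's mean over the 18 libraries (red high, blue low), with genes grouped by role. NSP replicate 1 is the darkest red column for most sterol enzymes, 24 h TNF replicate 1 is blue where replicates 2 and 3 are red, and Hsd17b7, Insig2, Scap and Srebf1 run against the other rows.

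The route from acetyl-CoA to squalene was lower at 72 h than in NSPs. Of its 9 enzymes 6 were lower at 24 h than in NSPs, 8 were lower at 72 h than at 24 h, and none rose in either step. Of all genes tested 25.5% were lower in the first step and 12.6% in the second. The first count was 3 (Acat2, Mvd and Ggps1) without NSP replicate 1. Their summed level was 3071, 1598 and 1505 CPM in the NSP libraries, 1246, 1484 and 1228 CPM at 24 h, and 530, 604 and 791 CPM at 72 h. It was 611, 527 and 561 CPM at 1 week, within the range of the 72 h libraries except for the library at 527 CPM.

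Hmgcs1, the synthase of HMG-CoA, was the most abundant enzyme of the route, with 2125, 1067 and 956 CPM in NSPs, 880, 1056 and 887 CPM at 24 h, 353, 401 and 541 CPM at 72 h, and 393, 345 and 332 CPM at 1 week. Its NSP and 24 h libraries overlapped, and its 72 h libraries lay below all of those at 24 h. Hmgcs1 was lower by a log2 fold change of -1.12 ± 0.35 (SE) at 72 h than at 24 h (edgeR quasi-likelihood test, adjusted p = 0.0222), while from NSPs to 24 h the value was -0.56 ± 0.34 (adjusted p = 0.18). The call at 72 h against 24 h was lost without 24 h replicate 2, without 72 h replicate 1 and without 72 h replicate 2. Against NSPs the fall at 72 h (-1.68 ± 0.35, adjusted p = 4.91e-04) held whichever library was left out. Part of the exons of Hmgcs1 (557 bases) lies opposite an antisense gene, Gm48342.

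Idi1, the isomerase of isopentenyl diphosphate, had 96.0, 37.5 and 32.5 CPM in NSPs, 28.9, 39.1 and 29.7 CPM at 24 h, 7.87, 7.67 and 11.1 CPM at 72 h and 10.6, 9.37 and 9.30 CPM at 1 week. It showed the pattern of a late fall, with overlapping NSP and 24 h libraries and all 72 h libraries below those of 24 h. Its log2 fold change from 24 h to 72 h was -1.87 ± 0.46 (adjusted p = 0.00542). Fdps, which makes farnesyl diphosphate, had 75.0, 37.8 and 37.8 CPM in NSPs, 22.1, 29.8 and 23.3 CPM at 24 h and 4.92, 5.52 and 7.92 CPM at 72 h. It fell at each step, from a mean of 50.2 to 25.1 CPM at 24 h (adjusted p = 0.0342) and then to 6.12 CPM at 72 h (log2 fold change -2.03 ± 0.41, adjusted p = 0.00121). The 24 h call was lost without NSP replicate 1, 24 h replicate 1 or 24 h replicate 3, and 1124 of its exonic bases are shared with Gm43738 on the same strand. Acat2, the cytosolic acetoacetyl-CoA thiolase, went from 174, 82.6 and 86.1 CPM in NSPs to 40.8, 46.3 and 34.7 CPM at 24 h and 13.4, 14.4 and 20.3 CPM at 72 h, and the 3 ranges did not overlap.

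The kinases Mvk and Pmvk and the decarboxylase Mvd, which turn mevalonate into isopentenyl diphosphate, fell at both steps. Their log2 fold changes were -0.90, -0.67 and -1.26 from NSPs to 24 h and -1.05, -0.79 and -1.35 from 24 h to 72 h. The 24 h calls of Mvk and Pmvk were lost without NSP replicate 1 or 24 h replicate 3, and that of Mvk also without 24 h replicate 1. Fdft1, squalene synthase, had 273, 131 and 141 CPM in NSPs, 116, 132 and 108 CPM at 24 h and 41.4, 44.1 and 58.8 CPM at 72 h. Its early difference missed the threshold (-0.62 ± 0.28, adjusted p = 0.0716) and its later one passed it (-1.30 ± 0.29, adjusted p = 0.00236). Some 774 bases of Fdft1 exons lie opposite Ctsb. Ggps1, which leads away from sterols to geranylgeranyl diphosphate, did not follow the others: it had 115, 97.7 and 108 CPM in NSPs, 81.2, 80.5 and 61.0 CPM at 24 h and 72.7, 88.7 and 102 CPM at 72 h. It fell at 24 h (-0.52 ± 0.17, adjusted p = 0.0144; not without 24 h replicate 3), and was not called at 72 h or at 1 week against NSPs (adjusted p = 0.163 and 0.217).

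The 11 enzymes from squalene to cholesterol were less uniform. Relative to NSPs, 6 fell by 24 h, and 8 had fallen and 1 had risen by 1 week. With NSP replicate 1 left out there were 3 falls (Lss, Tm7sf2 and Lbr) and 1 rise (Hsd17b7) by 24 h, and 8 falls and 2 rises by 1 week. Of all genes 25.5% were lower by 24 h, and 29.1% were lower and 29.6% higher by 1 week. The step from 24 h to 72 h held 6 falls and 1 rise, against 12.6% and 12.2% of all genes. The median log2 fold change of the 11 enzymes was -2.03 at 72 h against NSPs (-1.68 without NSP replicate 1), beside 0.05 for all genes tested.

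Lss, lanosterol synthase, had 360, 132 and 147 CPM in NSPs, 80.7, 94.0 and 81.2 CPM at 24 h, 28.4, 29.7 and 33.2 CPM at 72 h and 27.6, 26.4 and 30.9 CPM at 1 week. It fell by -1.32 ± 0.34 at 24 h (adjusted p = 0.00351; -0.71 ± 0.29 and 0.0481 without NSP replicate 1) and again by -1.49 ± 0.35 from 24 h to 72 h (adjusted p = 0.00386), and NSPs, 24 h and 72 h did not overlap. Cyp51, the lanosterol demethylase, went from 809, 321 and 339 CPM in NSPs to 229, 245 and 186 CPM at 24 h and 61.5, 75.5 and 99.4 CPM at 72 h. Nsdhl, which with Msmo1 removes methyl groups from the sterol ring, went from 122, 65.3 and 65.8 CPM to 36.6, 44.4 and 40.6 CPM and then to 11.7, 13.4 and 14.4 CPM. In both genes each step was past the threshold and without overlap, and the same held for Msmo1, with log2 fold changes of -0.84 and -0.96. The 24 h calls of Cyp51, Nsdhl and Msmo1 were lost without NSP replicate 1. Those of Cyp51 and Msmo1 were also lost without 24 h replicate 3, and that of Msmo1 without 24 h replicate 1.

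Tm7sf2 and Lbr, which encode sterol reductases acting on the same step, fell by 24 h, and Tm7sf2 fell again by 72 h. Tm7sf2 had 54.8, 55.4 and 54.6 CPM in NSPs, 15.4, 20.4 and 16.1 CPM at 24 h and 7.34, 7.06 and 9.08 CPM at 72 h. Its log2 fold change was -1.66 ± 0.24 in the first step (adjusted p = 1.55e-05) and -1.14 ± 0.25 in the second (adjusted p = 0.00205). It was also the sterol enzyme in which the 3 NSP libraries lay closest together. Lbr, which is a protein of the nuclear envelope as well, had 115, 64.4 and 68.2 CPM in NSPs, 21.3, 23.4 and 19.1 CPM at 24 h and 16.4, 17.7 and 17.8 CPM at 72 h. Its fall at 24 h was the largest among the 33 genes (-1.95 ± 0.24, adjusted p = 2.45e-06). Without NSP replicate 1 the value was -1.64 ± 0.22, beside -1.67 ± 0.26 for Tm7sf2. For Lbr the later step was -0.30 ± 0.24 (adjusted p = 0.404). Dhcr7, which acts at the end of the route, had the opposite timing, with 98.7, 55.8 and 51.6 CPM in NSPs, 46.9, 45.9 and 59.1 CPM at 24 h and 16.1, 17.5 and 16.8 CPM at 72 h. It was not called at 24 h (-0.44 ± 0.25, adjusted p = 0.148) and fell from 24 h to 72 h by -1.59 ± 0.26 (adjusted p = 1.99e-04). Tm7sf2 shares 532 exonic bases with Vps51 on the same strand.

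Sqle, Ebp and Sc5d had fewer calls. Sqle, squalene epoxidase, had 529, 211 and 214 CPM in NSPs, 433, 496 and 430 CPM at 24 h, 310, 328 and 432 CPM at 72 h and 509, 429 and 500 CPM at 1 week. It was called in none of the comparisons with all libraries, with NSP replicate 1 above all later libraries and NSP replicates 2 and 3 below all untreated ones. Without NSP replicate 1, it was called higher at 1 week than in NSPs (1.17 ± 0.47, adjusted p = 0.0448), and with 24 h TNF replicate 1 left out as well it was called higher at 24 h (1.09 ± 0.38, adjusted p = 0.0248). Ebp, a sterol isomerase, was lower than in NSPs at 72 h (-0.64 ± 0.20, adjusted p = 0.0107) and at 1 week (-0.73 ± 0.20, adjusted p = 0.00418), the first of which was lost without NSP replicate 1 or 72 h replicate 1. Sc5d, a sterol desaturase, was not called in any comparison of the fit over all 18 libraries. Its log2 fold change against NSPs was -0.48 ± 0.27 at 72 h. Alternative fits called it lower at 72 h against NSPs (without NSP replicate 2) and at 72 h TNF against 72 h (these conditions alone). It was also called lower at 72 h TNF against 24 h TNF without 24 h TNF replicate 1.

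Hsd17b7, a ketosteroid reductase of cholesterol synthesis that also acts on estrone, ran against the other enzymes. It had 89.5, 34.4 and 33.3 CPM in NSPs, 65.7, 66.4 and 58.2 CPM at 24 h, 132, 139 and 159 CPM at 72 h and 233, 216 and 241 CPM at 1 week. The untreated libraries of 24 h, 72 h and 1 week formed separate, rising ranges. The rise from 24 h to 72 h was 1.17 ± 0.29 (adjusted p = 0.00502), that from NSPs to 1 week was 2.14 ± 0.29 (adjusted p = 5.27e-06; 2.76 ± 0.22 without NSP replicate 1), and that from 72 h to 1 week missed the threshold (0.69 ± 0.28, adjusted p = 0.173). The value against NSPs at 24 h was 0.28 ± 0.28, and without NSP replicate 1 this difference too was called.

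**Figure D2:**
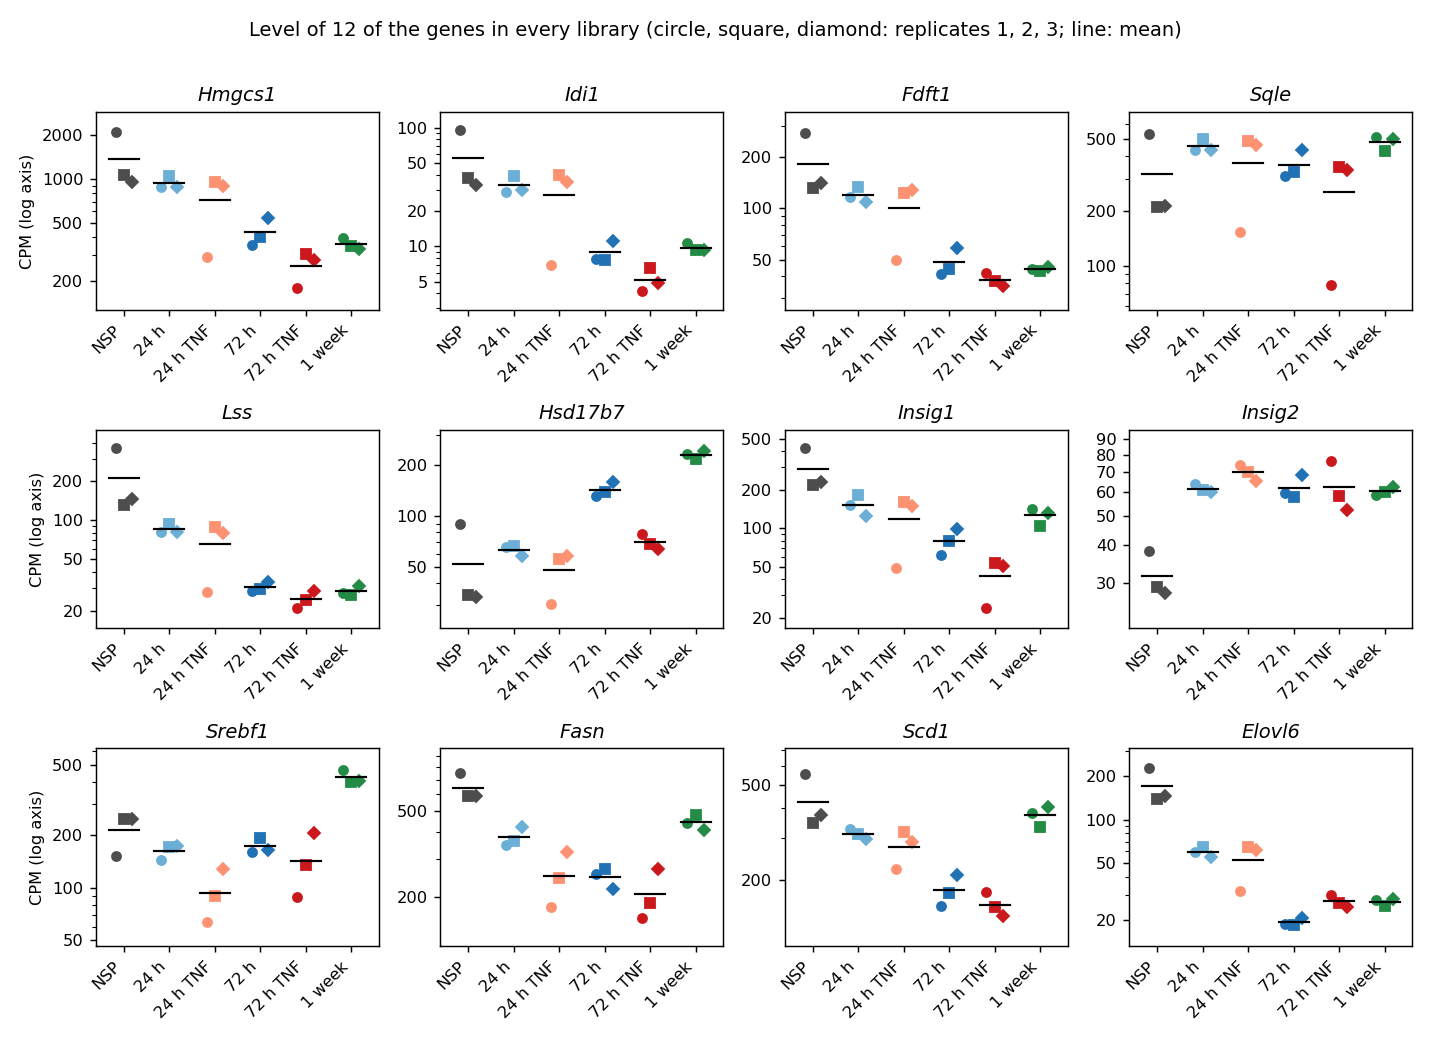
CPM on a log axis for 12 of the genes in every library, by condition, with circles, squares and diamonds for replicates 1, 2 and 3 and a line at the mean. Hmgcs1, Idi1, Fdft1 and Lss step down to 72 h and stay low, Hsd17b7 climbs to 1 week in untreated cells, Srebf1, Fasn and Scd1 are higher at 1 week than at 72 h, and the circle of 24 h TNF lies under its squares and diamonds in every panel except Insig2.

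Genes of the SREBP system were called in both directions. At 72 h against NSPs 3 of the 6 were lower (Insig1, Stard4 and Srebf2) and 2 were higher (Insig2 and Scap), where 27.2% of all genes were lower and 28.1% higher. The call of Srebf2 was lost without NSP replicate 1, without NSP replicate 2 and without any of the 72 h libraries. It was also lost with the other count filters and with a replicate block. Insig1 had 419, 218 and 229 CPM in NSPs, 152, 181 and 125 CPM at 24 h, 61.5, 79.2 and 98.2 CPM at 72 h and 141, 105 and 132 CPM at 1 week. Its ranges at NSP, 24 h and 72 h did not overlap, and its 1 week libraries lay above those of 72 h. It fell at 72 h against NSPs by -1.86 ± 0.37 (adjusted p = 2.87e-04), and the 1 week value against 72 h was 0.66 ± 0.36 (adjusted p = 0.337). Its paralog Insig2 had 38.1, 28.9 and 27.8 CPM in NSPs and from 57.7 to 68.3 CPM in the 9 untreated differentiated libraries. Insig2 rose by 0.96 ± 0.14 at 24 h (adjusted p = 2.22e-05) and stayed there, with log2 fold changes of 0.01 from 24 h to 72 h and -0.03 from 72 h to 1 week. The promoters printed above hold a CCAAT box in both genes and an E-box in Insig1 alone. At its further start sites, which are not printed, Insig2 had no CCAAT box and no E-box.

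Scap, the escort protein, rose at every stage against NSPs: it had 89.0, 110 and 109 CPM in NSPs, 130, 135 and 142 CPM at 24 h, 155, 178 and 150 CPM at 72 h and 235, 234 and 224 CPM at 1 week. The 4 ranges did not overlap. Its log2 fold change was 0.40 ± 0.14 at 24 h (adjusted p = 0.0236), which was lost without NSP replicate 1 or 24 h replicate 3, and 1.17 ± 0.14 at 1 week (adjusted p = 1.34e-06). Some 985 exonic bases of Scap lie opposite 5830462I19Rik, on the other strand. Srebf2, the family member that acts mainly on sterol genes, had 261, 201 and 193 CPM in NSPs, 257, 251 and 375 CPM at 24 h and 169, 149 and 135 CPM at 72 h. It was lower at 72 h than at 24 h by -0.96 ± 0.22 (adjusted p = 0.00354), with no call from NSPs to 24 h (0.43 ± 0.22, adjusted p = 0.109). Stard4, a cytosolic sterol carrier, followed the late pattern of Hmgcs1 and Idi1, with 94.5, 97.2 and 108 CPM at 24 h and 45.6, 40.8 and 50.2 CPM at 72 h (-1.13 ± 0.35, adjusted p = 0.0218), a call lost without 24 h replicate 3, 72 h replicate 1 or 72 h replicate 2.

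Srebf1, the member that acts mainly on fatty acid genes, was called in neither step up to 72 h and then rose. It had 152, 244 and 244 CPM in NSPs, 144, 169 and 173 CPM at 24 h, 159, 191 and 164 CPM at 72 h and 466, 398 and 402 CPM at 1 week. All 1 week libraries lay above every other library of the series. The rise from 72 h to 1 week was 1.30 ± 0.26 (adjusted p = 0.00394) and held whichever library was left out. NSP replicates 2 and 3 lay above all 24 h libraries, and without NSP replicate 1 and 24 h TNF replicate 1 Srebf1 was called lower at 24 h than in NSPs (-0.59 ± 0.23, adjusted p = 0.0398). NSP replicate 1 was the low NSP library for Srebf1, whereas it was the high one for 30 of the 33 genes.

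The 7 fatty acid genes were all lower at 24 h than in NSPs and all lower at 72 h, with medians of -0.77 and -1.37, where 25.5% and 27.2% of all genes were lower. Without NSP replicate 1 the medians were -0.68 and -1.14, and 6 were called at 24 h (not Scd1) and 7 at 72 h. Scd2, a stearoyl-CoA desaturase and the most abundant of the 33 genes, had 4265, 4013 and 3781 CPM in NSPs, 2416, 2417 and 2496 CPM at 24 h, 2181, 2295 and 2550 CPM at 72 h and 4419, 4222 and 3812 CPM at 1 week. Its fall at 24 h was -0.72 ± 0.11 (adjusted p = 4.55e-05), and its 1 week libraries overlapped those of NSPs. Scd1, its paralog, went from 555, 347 and 373 CPM in NSPs to 328, 312 and 298 CPM at 24 h, 156, 177 and 210 CPM at 72 h and 381, 335 and 404 CPM at 1 week. Fasn, fatty acid synthase, had 754, 587 and 590 CPM in NSPs, 350, 364 and 422 CPM at 24 h, 256, 271 and 218 CPM at 72 h and 443, 482 and 408 CPM at 1 week. Acaca, acetyl-CoA carboxylase, had 234, 148 and 164 CPM in NSPs, 125, 124 and 129 CPM at 24 h, 94.7, 88.3 and 86.7 CPM at 72 h and 120, 127 and 126 CPM at 1 week. In these 4 genes the 1 week libraries lay above all those of 72 h.

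Acly and Acss2, which supply cytosolic acetyl-CoA from citrate and from acetate, fell and stayed low. Acly went from 619, 377 and 401 CPM in NSPs to 218, 260 and 213 CPM at 24 h and 192, 165 and 199 CPM at 1 week. Acss2 went from 146, 94.9 and 102 CPM in NSPs to 56.5, 58.1 and 50.8 CPM at 24 h and 35.0, 29.7 and 35.8 CPM at 1 week. Elovl6, the elongase of palmitate, had the largest fall of the 33 genes at 72 h against NSPs (-3.15 ± 0.23, adjusted p = 1.59e-09; -2.88 ± 0.20 without NSP replicate 1), from 230, 138 and 147 CPM to 18.7, 18.6 and 20.8 CPM, with 59.5, 64.9 and 54.8 CPM at 24 h. At 1 week it had 27.6, 25.1 and 27.8 CPM, a value against 72 h of 0.47 ± 0.22 (adjusted p = 0.241).

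Counted over the 33 genes, 2 rose and 20 fell from NSPs to 24 h (edgeR, adjusted p under 0.05), where 27.2% of all 20067 genes tested were higher and 25.5% lower. The median log2 fold change was -0.72, beside 0.06 for all genes. At 72 h against NSPs 3 were higher and 26 lower (all genes: 28.1% and 27.2%), and at 1 week against NSPs 4 were higher and 23 lower (29.6% and 29.1%). From 24 h to 72 h 1 was higher and 21 lower, against 12.2% and 12.6% of all genes. Without NSP replicate 1, the 24 h comparison kept 13 of its 22 calls, gained Hsd17b7 and had a median of -0.47, and the calls of Cyp51, Fdps, Insig1, Msmo1, Mvk, Nsdhl, Pmvk, Scap and Scd1 were lost. With both NSP replicate 1 and 24 h TNF replicate 1 left out, 4 were higher and 18 lower: Insig1, Msmo1, Scap and Scd1 were lost, and Hsd17b7, Sqle, Srebf2 (higher) and Srebf1 (lower) were gained. Without NSP replicate 1, the medians against NSPs were -1.25 at 72 h and -1.31 at 1 week, where they were -1.68 and -1.54 with all libraries. Without 24 h replicate 3 the 24 h comparison also kept 13, with a median of -0.70. At 72 h against NSPs 27 of 29 calls held whichever library was left out, the others being Ebp and Srebf2. At 1 week against NSPs 24 of 27 held, and without NSP replicate 1 the calls of Fasn, Insig1 and Stard4 were lost. From 24 h to 72 h 15 of 22 held, the others being Acaca, Fasn, Hmgcs1, Msmo1, Mvk, Pmvk and Stard4, with 16 calls left without 72 h replicate 2.

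From 72 h to 1 week 6 genes were higher and none lower by edgeR and also by DESeq2, against 2.68% and 3.96% of all genes (edgeR), and 8 had an unadjusted p under 0.05 (19.3% of all genes). Those that rose were Scd1 (1.04 ± 0.17, adjusted p = 9.81e-04), Scd2 (0.83 ± 0.11, adjusted p = 1.91e-04), Fasn (0.84 ± 0.20), Acaca (0.47 ± 0.14), Srebf1 and Scap (0.52 ± 0.14). None of the sterol enzymes was called by edgeR or by DESeq2 at this step, and 1 of them, Hsd17b7, had an unadjusted p under 0.05. A fit of these 2 conditions alone called 9 genes, adding Hsd17b7, Insig1 and Elovl6, all higher, with no share of all genes given for it. Median log2 fold changes were -0.01 for the route to squalene, 0.00 for that from squalene to cholesterol and 0.47 for fatty acid synthesis. The calls of Scd1, Scd2 and Srebf1 held whichever library was left out, and those of Acaca, Fasn and Scap were lost without 72 h replicate 3 or without 1 week replicate 2. Acaca and Scap were lost without any 1 of the 6 libraries.

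**Figure D3:**
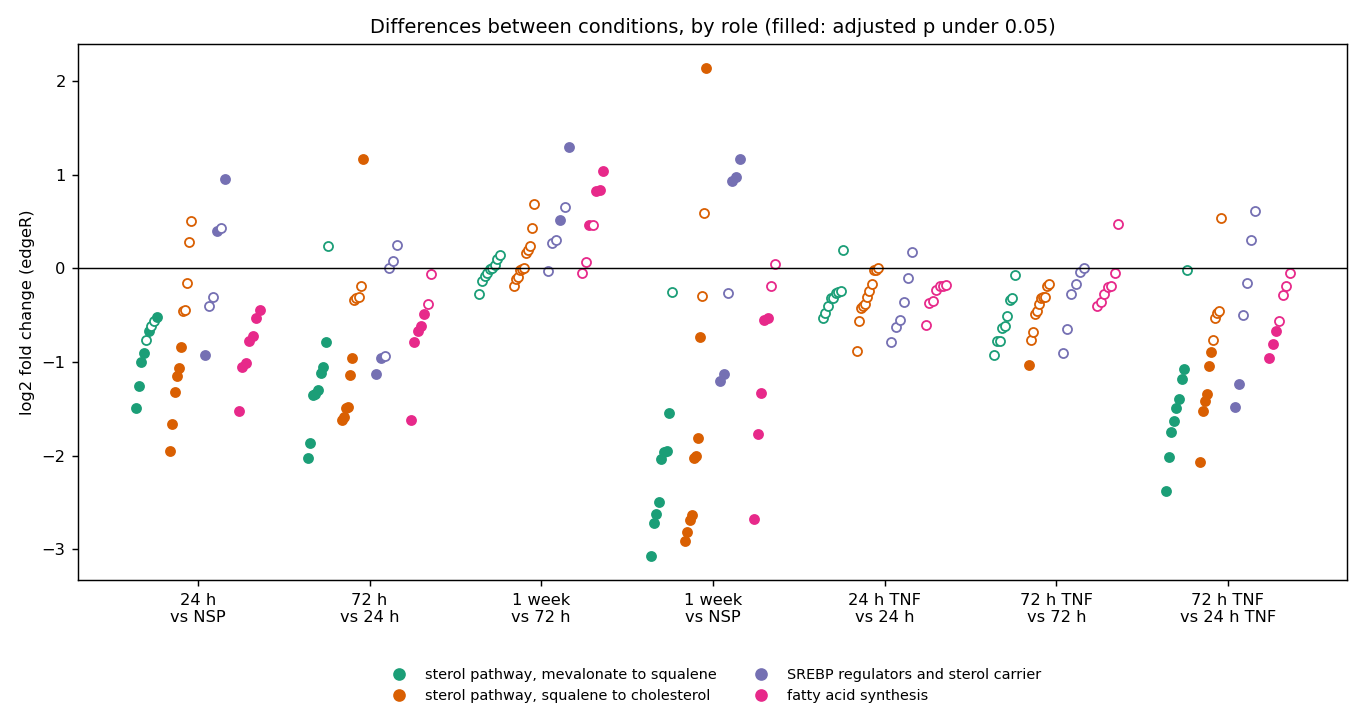
Log2 fold changes of the 33 genes in 7 comparisons, 1 point for each gene, coloured by role, with filled points for an adjusted p under 0.05. Sterol enzymes lie mostly below 0 in the steps to 72 h and close to 0 from 72 h to 1 week, where the filled points belong to fatty acid and SREBP genes, and in the comparisons of TNF with untreated cells all but 1 point are open.

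Genes of the TNF response (6 genes) summed to 208 to 231 CPM at 24 h and 196 to 222 CPM at 72 h with TNF, and to 22.5 to 35.9 CPM in untreated cells. Most of the sum with TNF was Nfkbia (means of 149 and 154 CPM) and Tnfaip3 (38.3 and 45.8 CPM). Icam1 and Cxcl1 stayed under 1 CPM in every condition. Lcn2 at 72 h had 7.66, 1.74 and 2.06 CPM with TNF and 1.97, 1.90 and 1.71 CPM without. At 24 h, none of the 33 genes was called between TNF and untreated cells by edgeR, against 3.50% of all genes in either direction. There were 7 with an unadjusted p under 0.05, against 13.8% of all genes. DESeq2 called 2 (Dhcr7 and Scd2, both lower), with no share of all genes given for it. Of the 33 log2 fold changes 31 were negative, against 10158 of 20067 for all genes. Their median was -0.32, beside -0.01 for all genes. Without 24 h TNF replicate 1 the median of the 33 was -0.01, again with no call. Without 24 h TNF replicate 3 it was -0.49, with calls of Dhcr7, Fasn and Srebf1.

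Most sterol enzymes had 1 low TNF library at 24 h. Hmgcs1 had 291, 951 and 895 CPM with TNF, where untreated cells had 880 to 1056 CPM. Idi1 had 6.99, 39.7 and 35.1 CPM with TNF, against 28.9 to 39.1 CPM without. Lss had 28.0, 88.7 and 80.3 CPM, against 80.7 to 94.0 CPM. In each case replicate 1 was far below and replicates 2 and 3 were at or close to the untreated range. Dhcr7 was different, with 15.1, 31.7 and 35.5 CPM under TNF, all below the 45.9 to 59.1 CPM of untreated cells (-0.88 ± 0.26, adjusted p = 0.0667). Srebf1 was also lower in all 3, with 64.0, 89.1 and 127 CPM against 144 to 173 CPM (-0.79 ± 0.26, adjusted p = 0.112). Scd2, where the 3 TNF libraries lay close together, had 1902, 1787 and 1965 CPM against 2416 to 2496 CPM (-0.37 ± 0.11, adjusted p = 0.0837). Fasn (181, 246 and 324 CPM), Acaca, Srebf2, Stard4 and Tm7sf2 were the further genes whose TNF libraries all lay below the untreated ones, 8 in all, against 10.1% of all genes, and Insig2 was the 1 gene whose TNF libraries all lay above, against 10.7% of all genes.

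At 72 h, 31 of the 33 log2 fold changes for TNF were negative, against 10207 of 20067 for all genes. The median was -0.34, beside -0.01 for all genes, and 1 gene was called. This was Hsd17b7, which was lower, against 5.21% of all genes called lower. It had 78.2, 68.3 and 64.0 CPM with TNF and 132, 139 and 159 CPM without (-1.03 ± 0.28, adjusted p = 0.0276), so that its level with TNF was near that of untreated cells at 24 h. The call was lost when 72 h replicate 2, 72 h replicate 3, 72 h TNF replicate 2 or 72 h TNF replicate 3 was left out. In 14 of the 33 genes all TNF libraries lay below all untreated ones, against 13.4% of all genes, and in 1 all lay above, against 12.7% of all genes. The latter was Elovl6, with 30.0, 26.4 and 24.8 CPM with TNF and 18.6 to 20.8 CPM without (0.48 ± 0.22, adjusted p = 0.174). Among the 14 were Hmgcs1 (177, 303 and 278 CPM with TNF, 353 to 541 CPM without), Mvd (5.13, 3.25 and 6.57 CPM against 7.42 to 11.9 CPM), Insig1 (24.0, 53.4 and 50.9 CPM against 61.5 to 98.2 CPM) and Scd2 (1711, 1883 and 1886 CPM against 2181 to 2550 CPM). Their adjusted p-values were 0.169, 0.0866, 0.129 and 0.0531. DESeq2 called 3 genes lower, namely Hsd17b7, Mvd and Scd2, with no share of all genes given for it. Without 72 h TNF replicate 1, in which Sqle had 78.1 CPM where the other TNF libraries had 349 and 337 CPM, the median was -0.29. Other genes differed in that library as well: 2.30% of all genes were doubled or more against its replicates. Of the 8 astrocyte markers 7 were higher there than in both other replicates, with 1022 CPM of Gfap against 217 and 229 CPM and 383 CPM of Gja1 against 138 and 116 CPM, and Acta2 had 49.2 CPM against 186 and 202 CPM. Their part in the values of the 33 genes was not tested.

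The difference between the TNF effects at 72 h and at 24 h was tested in the same fit, and none of the 33 genes was called, against 0.458% of all genes in either direction. Of the 33, 1 had an unadjusted p under 0.05 (10.1% of all genes), and DESeq2 called none. Without 24 h TNF replicate 1 the median of this difference was -0.39, where it was -0.10 with all libraries. Within TNF-treated cells, the genes were also compared between 24 h and 72 h: 19 genes were lower and none higher at 72 h by edgeR and by DESeq2 (all genes, edgeR: 7.93% and 5.38%), with a median of -0.89 and 25 genes at an unadjusted p under 0.05 (26.9% of all genes). The largest falls were those of Idi1 (-2.38 ± 0.48), Cyp51 (-2.07 ± 0.39) and Fdps (-2.02 ± 0.41). With 24 h TNF replicate 1 left out, 23 genes were lower and the median was -1.15, and with 24 h TNF replicate 2 left out 11 were. A fit of these 2 conditions alone called 3, with no share of all genes given for it.

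The genes in which 24 h TNF replicate 1 departed most from its condition tended to be ones that were lower at 72 h than at 24 h in untreated cells. The log2 ratio to replicates 2 and 3 was -2.34 for Idi1, -2.10 for Fdps and -1.81 for Cyp51, and it was -0.25 for Acaca, 0.02 for Scd2 and 0.12 for Insig2. Across the 33 genes these ratios and the 72 h against 24 h log2 fold changes of untreated cells, which use other libraries, had a Pearson r of 0.69 and a Spearman rho of 0.73. Against the ratios of NSP replicate 1 to the other NSP libraries, r was -0.60 and rho -0.69, and between the ratios of 24 h TNF replicate 1 and those of 72 h TNF replicate 1, r was 0.45 and rho 0.50. These are descriptions over 33 genes, which are not independent of one another, and each ratio rests on 1 library. Hsd17b7 lay off the first relation, being low in that library (-0.91) but higher at 72 h than at 24 h. Sqle was another exception, with a ratio of -1.63 and a 72 h against 24 h value of -0.34 (adjusted p = 0.632).

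**Figure D4:**
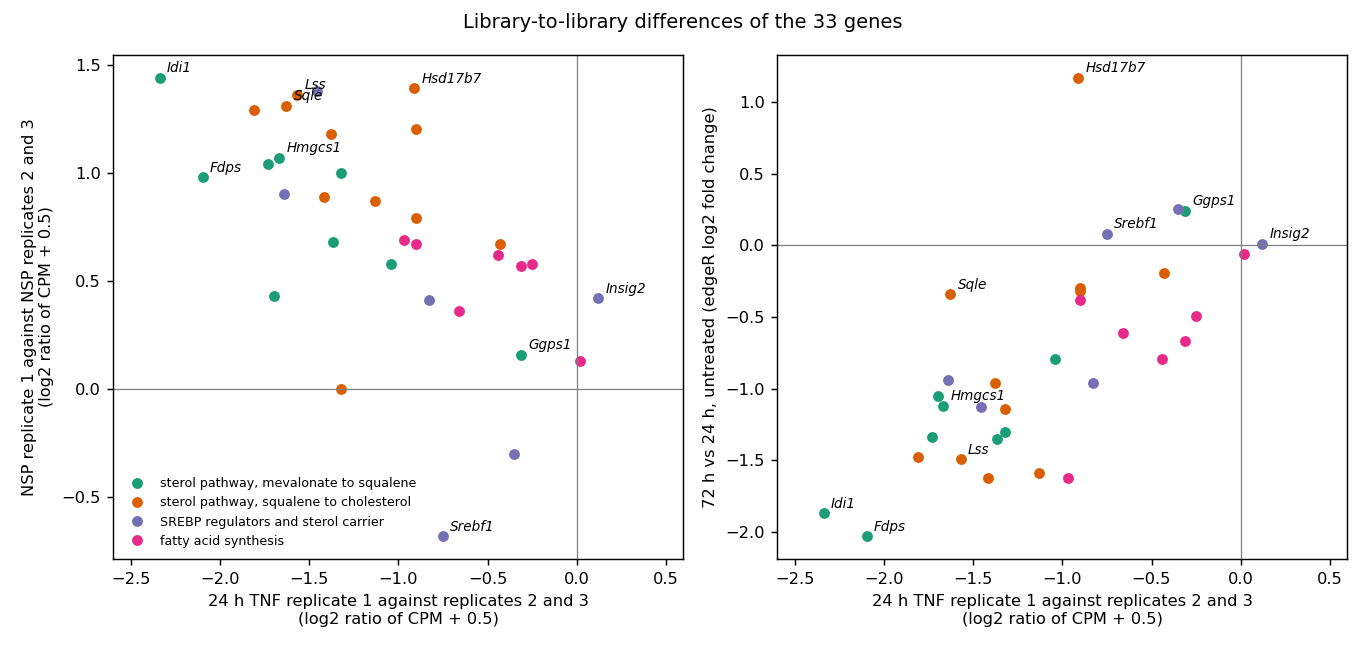
Each point is 1 of the 33 genes, with the log2 ratio of 24 h TNF replicate 1 to the mean of replicates 2 and 3 on the x axes. The y axis gives the same ratio for NSP replicate 1 (left) or the untreated 72 h against 24 h log2 fold change (right); the lowest genes in 24 h TNF replicate 1 tend to be high in NSP replicate 1 and to fall most by 72 h, and Hsd17b7 is the highest point of the right panel.

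Other genes moved in this library too. Gfap had 1871 CPM in 24 h TNF replicate 1, where replicates 2 and 3 had 463 and 596 CPM, and Aqp4, an astrocytic water channel, had 1056 CPM against 478 and 459 CPM. Of the 8 astrocyte markers 6 were higher there than in both other replicates, including Gja1 (330 CPM against 54.7 and 56.2 CPM) and Aldh1l1 (50.2 CPM against 18.7 and 22.1 CPM). The other markers, Slc1a3 (2041 CPM against 2958 and 2858 CPM) and Aldoc (451 CPM against 598 and 653 CPM), were lower. Top2a, a proliferation marker, had 16.1 CPM against 40.2 and 34.1 CPM, and Acta2 had 90.3 CPM against 527 and 493 CPM. Nfkbia, a direct target of TNF signalling, had 151 CPM there and 135 and 161 CPM in the others. In NSP replicate 1, Aqp4 had 55.6 CPM against 208 and 213 CPM, and Gfap, Aldh1l1, Gja1 and Aldoc were lower as well. The astrocyte markers Slc1a3 (3381 CPM against 2791 and 2977 CPM) and Slc1a2 (435 CPM against 422 and 422 CPM) were higher there. S100b was level (116 CPM against 120 and 116 CPM). Of the proliferation markers, Top2a had 1180 CPM against 611 and 684 CPM, while Mki67 had 493 CPM against 457 and 471 CPM. The part of these differences in the levels of the sterol genes was not tested, and RNA quality is given for the series as a range and not for each library.

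Neighbouring pathways were read from lists of other genes. Of 10 other genes of isoprenoid use (prenyl transferases and the makers of ubiquinone and dolichol chains), 1 rose and 5 fell from NSPs to 24 h. Against this, 27.2% of all genes tested were higher and 25.5% lower. Among those that fell were Rabggtb, a subunit of geranylgeranyl transferase, with means of 98.5 CPM in NSPs and 41.4 CPM at 24 h (-1.25 ± 0.19, adjusted p = 3.23e-05), and Pdss1, of ubiquinone side chain synthesis, with means of 23.2 CPM in NSPs and 10.3 CPM at 24 h (-1.17 ± 0.24, adjusted p = 4.78e-04). Between 24 h and 72 h 1 of the 10, Coq2, was higher, near the share of all genes (12.2%), and TNF gave medians of 0.03 at 24 h and -0.14 at 72 h. Of 10 other genes of SREBP control, 2 were lower at 24 h than in NSPs, a smaller share than the 25.5% of all genes, namely Mbtps1, a protease that cleaves SREBPs, and Erlin1. Both were also lower at 72 h than in NSPs, Mbtps1 by -0.36 ± 0.09 (adjusted p = 0.00323) and Erlin1 by -0.82 ± 0.20 (adjusted p = 0.00205).

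Of 15 other fatty acid genes, the 72 h cultures had 3 higher and 9 lower relative to NSPs, where all genes had 28.1% higher and 27.2% lower. Fads1, a desaturase of polyunsaturated fatty acids, had means of 519 CPM in NSPs, 250 CPM at 24 h and 177 CPM at 72 h (72 h against NSPs -1.55 ± 0.12, adjusted p = 2.95e-09). Oxsm, of mitochondrial fatty acid synthesis, rose instead, from a mean of 5.06 CPM in NSPs to 30.0 CPM at 72 h and 50.5 CPM at 1 week. In this list TNF calls were found: 3 genes were lower with TNF at 24 h (Elovl2, Fads1 and Mid1ip1) and 4 at 72 h (Elovl2, Fads2, Mid1ip1 and Acsl1), where 1.32% and 5.21% of all genes were lower. Elovl2, an elongase of polyunsaturated fatty acids, had means of 24.6 CPM without and 12.8 CPM with TNF at 72 h (-0.95 ± 0.14, adjusted p = 2.21e-04). Mid1ip1, which activates acetyl-CoA carboxylase, had 204 CPM without and 88.4 CPM with TNF (-1.21 ± 0.15, adjusted p = 2.52e-05).

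To compare genes with each other, CPM was divided by exonic length in kilobases. By this measure Scd2 was the highest of the 33 genes in NSPs (736 CPM per kb) and at 1 week (760 CPM per kb), followed in NSPs by Hmgcs1 (301), Cyp51 (111), Insig1 (93.3), Acly (88.2) and Scd1 (86.9). The order below Hmgcs1 rested on NSP replicate 1: in the mean of replicates 2 and 3 these 4 genes had 74.7 (Cyp51), 73.7 (Acly), 73.6 (Scd1) and 72.2 CPM per kb (Insig1), with overlapping libraries. At 1 week the order below Scd2 was Sqle (86.4 CPM per kb), Hmgcs1 (77.7), Scd1 (76.3) and Srebf1 (74.9). On this scale the libraries of these 4 genes overlapped, with 77.3 to 91.8 for Sqle, 72.3 to 85.6 for Hmgcs1, 68.5 to 82.5 for Scd1 and 70.6 to 82.7 CPM per kb for Srebf1, so that they are not ordered beyond their spread. Fdps was the lowest sterol enzyme at 1 week (1.42 CPM per kb), and Ebp, low throughout, went from 6.41 in NSPs to 3.87 CPM per kb.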

How the data were processed

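RNA from 18 cultures was sequenced by the authors as stranded, ribosomal RNA-depleted, paired-end libraries, and raw counts per gene were deposited without normalization. Per the labels the reads were handled with FastQC, Trim Galore, STAR, SAMtools and featureCounts on mm10. Versions, annotation, strand setting and the treatment of reads that match several genes are not given in the sources used here, so reads of overlapping or paralogous genes (Scd1 and Scd2, Insig1 and Insig2) may be shared. Besides the overlaps given above, exons of Idi1, Ggps1, Lss, Cyp51, Lbr, Srebf1, Acss2, Scd2 and Elovl6 overlap those of other genes. The most is 927 bases in Acss2, on the other strand. No column was left out. The column for 72 h replicate 3 carries another replicate number and was matched by its condition and index.

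Gene names and positions came from GENCODE M21 on GRCm38, and promoters from RefSeq. Genes passing filterByExpr of edgeR 4.0.16 (20067 genes, R 4.3.3) were TMM scaled and fitted with a mean per condition over all 18 libraries by the quasi-likelihood test, which gave a biological coefficient of variation of 0.18. P-values were adjusted over all genes tested by Benjamini-Hochberg, with a threshold of 0.05. Standard errors are those of the log2 fold change. Library ratios used CPM + 0.5. The code was tested on simulated data. Depth limits counting error only, since reads lacking molecular identifiers cannot be taken as independent molecules.

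The 33 genes and the other lists were chosen with earlier results of these data known. Every one of the 33 was reported, and genes of the other lists were named from those called. Alternatives were DESeq2 1.42.0, RLE scaling, 2 filters, the compared groups alone, a replicate block, each library left out, and a log2 fold change of at least 1. Leaving out 2 libraries together was chosen after seeing the data. Shares of all genes called are given for the edgeR test described above alone, so counts from the alternatives have none beside them. Replicate numbers paired libraries only in the comparison of 72 h TNF with 24 h TNF, where same-numbered libraries deviated together (r of 0.291, 0.255 and 0.266).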

Additional observations from a re-analysis of the deposited data

How the results depend on the processing

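No log2 fold change of a called gene was reversed in any alternative run. Of 142 counts of called genes (comparison by setting), 116 stayed within 1.5 times of the count reported. At 24 h against NSPs a log2 fold change of at least 1 left 10 genes, and leaving out single libraries gave 13 to 24. At 1 week against 72 h it left 2, a replicate block with 72 h replicate 3 unpaired left 3, and single left-out libraries gave 3 to 4. At 24 h TNF against 24 h, where none was called, DESeq2 called 2 (Dhcr7 and Scd2), a filter of 5 counts in total 1 (Dhcr7), the replicate block 1 (Srebf1), the block with 72 h replicate 3 unpaired 1, and the fit without NSP replicate 1 and 24 h TNF replicate 1 called 1 (Dhcr7). Single left-out libraries gave 0 to 3. At 72 h TNF against 72 h, where 1 was called, DESeq2 called 3, the compared groups alone 2, the block with 72 h replicate 3 unpaired 0, the fit without replicate 1 of both TNF conditions 2, and single left-out libraries gave 0 to 2. At 72 h TNF against 24 h TNF, where 19 were called, the compared groups alone gave 3 and single left-out libraries 11 to 23. For the difference of the TNF effects, the fit without NSP replicate 1 and 24 h TNF replicate 1 called 1 (Hsd17b7). Among refits of single genes called, 184 lost a call and 1697 kept it. The cause of these shifts was not tested. The replicate block changed no other count by over 1.5 times, and in the comparison whose libraries were paired it left 19 calls. In the other comparisons the samples share only a number. With 3 libraries a condition, the spread between libraries limits these comparisons.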
